A study of Mus musculus with 165 samples.

Results

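The comparison asked whether the response of PUER cells to 8 h of 4-hydroxy-tamoxifen (OHT) differed between GCSF and IL3. For each gene, the OHT effect in GCSF (GCSF-OHT 8h minus GCSF 0h) was set against the OHT effect in IL3 (IL3-OHT 8h minus undifferentiated cells, the 0h of IL3), both on the log2(normalized count + 1) scale. The difference between both effects, GCSF minus IL3, is called the interaction here. It rests on 12 RNA-Seq libraries, which are 4 groups of 3 out of the 54 groups of the time course that entered the fit.

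The 4 groups share 1 line and 1 genotype. PUER cells are bone marrow-derived progenitors of mouse, labelled Spi1-/-, whose only PU.1 protein is a fusion with the hormone-binding part of the estrogen receptor (ER). Undifferentiated cells were grown in IL3 without OHT, and IL3-OHT 8h cells had 200 nM OHT in IL3 for 8 h. GCSF 0h cells had spent 48 h in GCSF in place of IL3 and had no OHT, and GCSF-OHT 8h cells had the same pre-treatment followed by 8 h of 100 nM OHT in GCSF. The cytokine, the 48 h of pre-treatment and the OHT dose thus changed together, and their parts in the interaction cannot be told apart. No group without OHT was sampled at 8h, and the paper used a separate plate for each time point. What is called the OHT effect here therefore also holds elapsed time and plate. The undifferentiated libraries also stand for the start of the GCSF pre-treatment. The titles of the GCSF 0h libraries name OHT, but their descriptions and treatment labels place them before it, so OHT was taken as absent from them. All replicates came from wells of a single line, so that p-values measure the spread between these samples, which may be technical.

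PU.1, encoded by *Spi1*, is an ETS-family transcription factor that both macrophages and neutrophils need. OHT binds the receptor part of the fusion and lets PU.1 act in the nucleus. IL3 keeps myeloid progenitors alive and dividing and leaves PUER cells to become macrophage-like after OHT, whereas GCSF, which signals through the receptor encoded by *Csf3r*, directs them toward neutrophils. Growth of the ribosome supply, DNA replication, glycolysis and the immediate-early genes, which answer a change of stimulus within minutes, all depend on such cytokine signals.

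Reads on genes ran from 17754586 to 28484894 per library (median 21412083), and 3 reads, taken as the floor of detection, corresponded to a normalized count of 2.07 to 3.93, counting error only. The correlation of log2 values across genes between replicates ran from 0.979 to 0.987. *Kit*, the stem cell factor receptor of progenitors, had a mean normalized count of 3411 to 4053 in the 4 groups. The summed level of 8 neutrophil markers ran from 133480 to 142420 in undifferentiated cells and from 97240 to 100510 at IL3-OHT 8h. In GCSF it ran from 193830 to 219590 at 0h and from 198660 to 210150 at 8h. The gap between the conditions in this sum was thus present before OHT. The markers did not all share it, as 3 of the 8 were called higher in GCSF at 0h and 1 lower. The summed level of 7 macrophage markers ran from 2099 to 2348 in undifferentiated cells, 1654 to 1815 at IL3-OHT 8h, 594 to 830 at GCSF 0h and 741 to 845 at GCSF-OHT 8h. Most of it was *Cd68*, a lysosomal protein, and *C1qa* had no read in any group. The mean of *Cd68* at 8h was 0.742 of that at 0h in IL3 and 0.976 in GCSF. Of 5 macrophage markers tested, 2 rose and 0 fell in each condition, so the sum does not give the direction of the other markers. In bulk RNA, fewer cells of a type and less RNA per cell cannot be told apart.

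The OHT effect differed between GCSF and IL3 in 4776 of 17414 genes tested (27.4%). It was higher in GCSF in 2783 genes (16%) and lower in GCSF in 1993 genes (11.4%). Calls needed a log2 difference beyond 0.58 in either direction with an adjusted p below 0.05 (limma, Benjamini-Hochberg adjustment over all genes tested). The median interaction of all genes tested was 0.08. Before OHT, 2261 genes were called higher and 3600 lower in GCSF than in undifferentiated cells. At 8h 2096 were called higher and 2357 lower in GCSF than in IL3. In GCSF alone, 938 genes rose (5.39%) and 699 fell (4.01%) from 0h to 8h, and in IL3 2053 rose (11.8%) and 3119 fell (17.9%). Of the genes higher in GCSF, 1830 had fallen in IL3 without a call in GCSF, and of those lower in GCSF, 1038 had risen in IL3 without a call in GCSF. Another 472 and 571 were called in neither condition by itself. In 261 genes both effects were called with opposite signs, 146 of them up in GCSF and down in IL3 and the others the reverse. The 413 genes that rose in both were 44.03% of the genes that rose in GCSF and 20.1% of those that rose in IL3, and the 270 that fell in both were 38.6% and 8.66%.

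**Figure D1:**
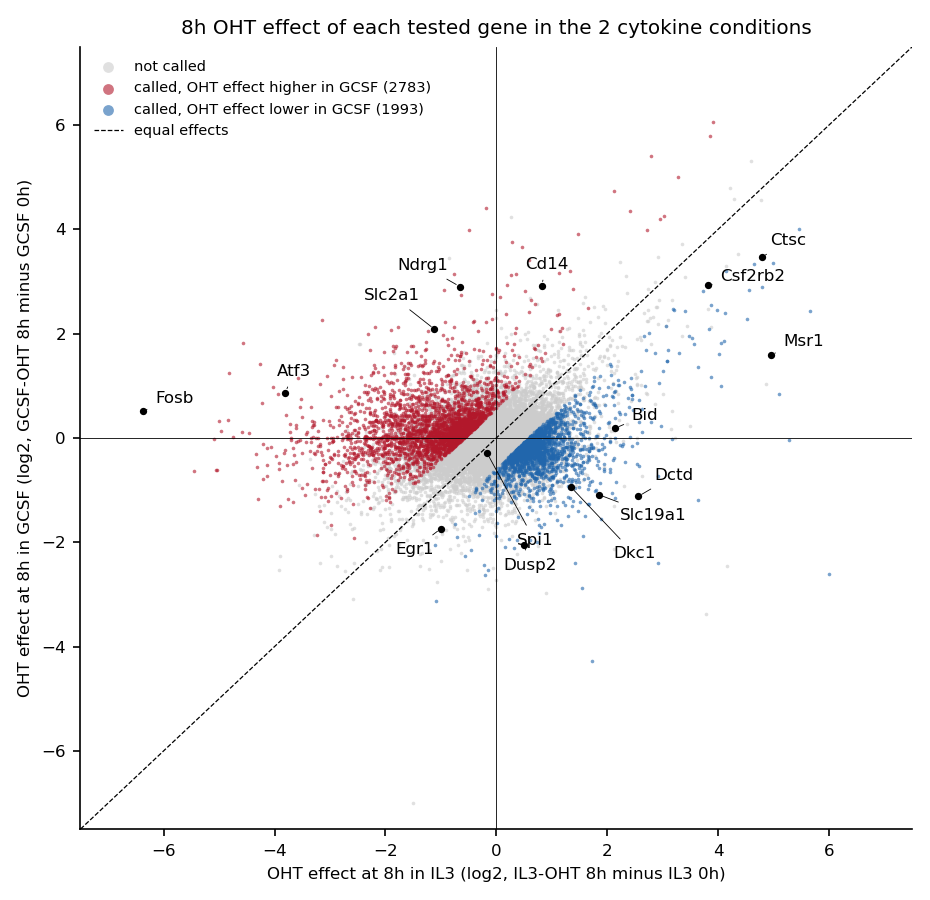
Each point is 1 of 17414 genes, with its OHT effect at 8h in IL3 on the x axis and in GCSF on the y axis, both in log2 units. The 2783 genes called higher in GCSF lie above the dashed line of equal effects, spread to the left where genes fell in IL3, and the 1993 called lower lie below it, spread to the right where genes rose in IL3.

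*Spi1*, *Esr1* and *Greb1* were taken as the OHT check, where reads of the transgene can count to *Spi1* or *Esr1*. OHT binds the fusion protein, so these RNA levels do not measure how active PU.1 was in either condition. *Spi1* was at 10267, 9905 and 9799 normalized counts in undifferentiated cells, 8939, 8928 and 8902 at IL3-OHT 8h, 12483, 12811 and 12464 at GCSF 0h and 10363, 10295 and 10138 at GCSF-OHT 8h. Its interaction of -0.13 ± 0.07 (SE) was not called (limma, adjusted p = 0.108), nor was the 0.17 ± 0.08 of *Esr1* (limma, adjusted p = 0.0827). *Greb1*, a gene that the native estrogen receptor induces, stood at 599, 597 and 605 before OHT in IL3 and at 980, 1077 and 1000 after it. In GCSF it was at 576, 518 and 501 before and 395, 422 and 464 after, without overlap between the 3 libraries of each group. The interaction of *Greb1* was -1.08 ± 0.10 (limma, adjusted p = 1.13e-16), and its effect of -0.32 in GCSF was under the size needed for a call.

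Ribosome biogenesis factors moved apart as a group. These proteins make, modify and assemble ribosomal RNA in the nucleolus. Of 40 factors tested, 39 were called lower in GCSF and 0 higher, with a median interaction of -1.40. In IL3 25 of them rose and 0 fell, in GCSF 20 fell and 0 rose, and 13 did both. The list started at like levels in both conditions. At 0h the median factor lay between -0.03 and 0.01 of the mean of the undifferentiated cells in the 3 GCSF libraries, and 2 factors were called higher and 4 lower in GCSF (33.7% of all genes were called at 0h). At 8h the median lay at 0.75, 0.70 and 0.71 in the IL3-OHT libraries and at -0.62, -0.61 and -0.60 in the GCSF-OHT libraries, and all 40 factors were called lower in GCSF than in IL3 (25.6% of all genes were called at 8h). *Gnl2*, a nucleolar GTPase and the factor without a call for the interaction, had a value of 0.14 (chosen for mention after its values were seen).

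*Dkc1* (chromosome X, 75095854-75109776, GRCm38.p6) encodes dyskerin, the pseudouridine synthase of box H/ACA particles. It was at 1046, 1137 and 1197 normalized counts in undifferentiated cells and at 2960, 2861 and 2805 at IL3-OHT 8h, while in GCSF it went from 1689, 1660 and 1698 to 779, 907 and 940. Each of these groups lay apart from its partner, up in IL3 and down in GCSF, and the interaction was -2.30 ± 0.13 (limma, adjusted p = 4.13e-33). *Nop2*, a ribosomal RNA methyltransferase (chromosome 6, 125131883-125144753), had 1697, 1606 and 1591 before and 3892, 3790 and 3757 after OHT in IL3, and 1983, 1846 and 1928 before and 1075, 1171 and 1168 after it in GCSF (interaction -1.98 ± 0.10, limma adjusted p = 1.10e-37). *Rrp9*, of the U3 small nucleolar particle, was lower in GCSF by -2.05 ± 0.15, with a mean of 807 and 1862 in IL3 and of 809 and 450 in GCSF. *Utp20*, of the small subunit processome, rose in IL3 from a mean of 1205 to 3402, while its means of 1454 and 1014 in GCSF (-0.52) were not called, the interaction being -2.02 ± 0.12.

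**Figure D2:**
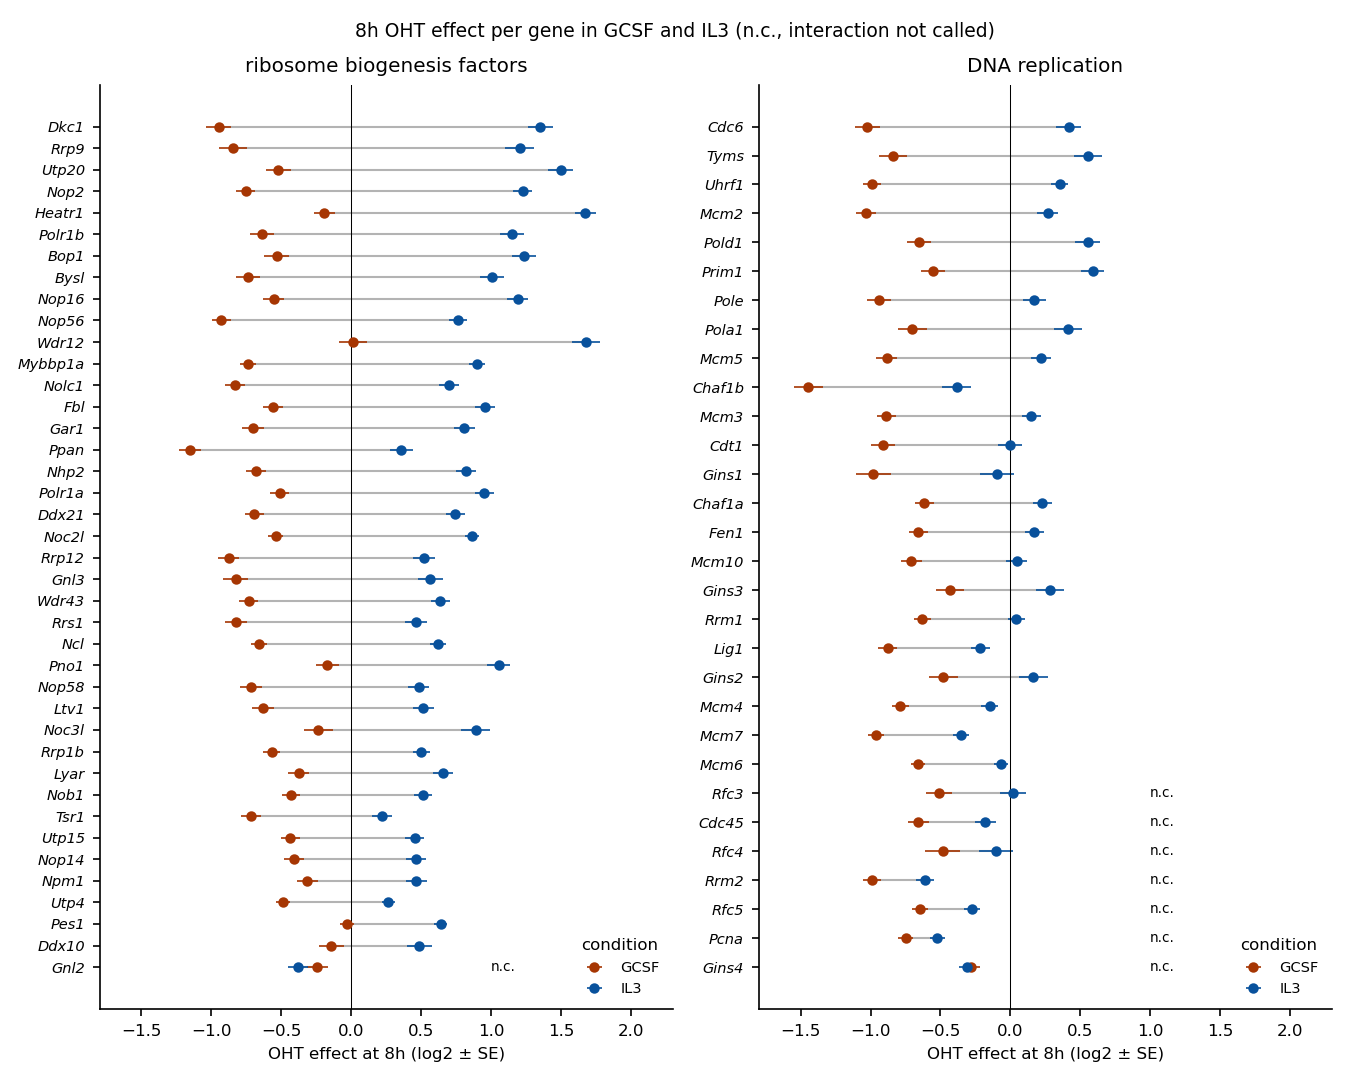
Each row is a gene of the ribosome biogenesis list (40 genes) or the DNA replication list (all but 1 of 31 genes), with its OHT effect at 8h in GCSF (brown) and IL3 (blue) in log2 units and bars of 1 SE. Blue points of ribosome biogenesis factors lie right of 0 and brown points left of 0 for most rows, while DNA replication genes lie near 0 in IL3 and left of 0 in GCSF.

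The 250 bases upstream of the start of these genes were searched on both strands for the PU.1 letters GAGGAAGT and the E-box CACGTG, in RefSeq windows of GRCm38.p6. The PU.1 letters stood in 5 of 38 windows of 34 ribosome biogenesis factors (13.2%, 2 of the 5 being overlapping windows of *Noc2l*), beside 2.51% of 14706 windows of tested genes. The E-box stood in 1 of the 38 windows (2.63%, beside 7.73%). Over all genes called lower in GCSF this was otherwise, with the PU.1 letters in 2.97% and the E-box in 10.6% of 1918 windows. The windows of *Nop14* and *Noc3l* are printed because they hold the PU.1 letters (in capitals), and that of *Nop2* because it holds the E-box (in capitals). They are at chr5:34660149-34660398 (minus strand), chr19:38819238-38819487 (minus strand) and chr6:125131633-125131882 (plus strand), each written 5′ to 3′ along its gene. A match is a description of these letters and not a site of binding.
Nop14: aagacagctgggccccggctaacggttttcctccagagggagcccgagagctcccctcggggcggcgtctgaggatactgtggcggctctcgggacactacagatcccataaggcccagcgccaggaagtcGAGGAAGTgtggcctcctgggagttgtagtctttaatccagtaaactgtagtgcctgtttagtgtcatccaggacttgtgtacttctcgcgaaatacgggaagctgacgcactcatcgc
Noc3l: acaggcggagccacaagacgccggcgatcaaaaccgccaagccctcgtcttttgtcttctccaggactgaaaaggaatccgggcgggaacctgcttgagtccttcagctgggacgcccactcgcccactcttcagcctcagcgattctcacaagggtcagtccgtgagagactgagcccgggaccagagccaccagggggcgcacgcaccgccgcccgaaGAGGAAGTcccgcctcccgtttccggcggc
Nop2: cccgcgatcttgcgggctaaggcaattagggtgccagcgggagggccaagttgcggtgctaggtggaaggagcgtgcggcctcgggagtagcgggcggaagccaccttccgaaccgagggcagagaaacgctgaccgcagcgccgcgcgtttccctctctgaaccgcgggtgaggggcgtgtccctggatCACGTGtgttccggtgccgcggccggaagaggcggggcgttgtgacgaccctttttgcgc
*Nop14* and *Noc3l*, both nucleolar assembly factors, had interactions of -0.87 ± 0.10 and -1.12 ± 0.15.

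Several of the 12 genes with the largest negative interactions work in nucleotide, folate and polyamine metabolism. *Dctd*, deoxycytidylate deaminase, was at 92.9, 97.2 and 105.2 in undifferentiated cells and at 605, 586 and 564 at IL3-OHT 8h, a 5.94-fold rise of the mean. In GCSF it fell from 170.97, 192.1 and 185.5 to 72.5, 93.8 and 85.6, and the interaction was -3.68 ± 0.20 (limma, adjusted p = 1.70e-33). *Slc19a1*, the reduced folate carrier, went from 307, 250 and 245 to 951, 944 and 990 in IL3 and from 225, 289 and 240 to 149.1, 117.2 and 91.8 in GCSF. The polyamine enzyme spermidine synthase, *Srm*, went from 1584, 1535 and 1592 to 5029, 5135 and 4967 in IL3 and from 1618, 1586 and 1743 to 818, 1029 and 922 in GCSF. *Slc19a1* and *Srm* both rose in IL3 and fell in GCSF, with interactions of -2.94 ± 0.19 and -2.52 ± 0.16. *Mtap*, which recycles methylthioadenosine, and the nucleoside transporter *Slc29a2* had -2.54 ± 0.36 and -2.45 ± 0.28. The cytochrome oxidase assembly gene *Sco2* had -2.57 ± 0.30, *Mcrip2* -2.58 ± 0.23, the MYC target *Cdca7* -2.44 ± 0.13, *Nkain1* -2.41 ± 0.55 and *Slc35g1* -2.32 ± 0.15. The largest negative value, the -5.34 ± 1.70 of the predicted gene *Gm45140*, rested on undifferentiated libraries at 0, 290 and 2.36, and without the first of them it was -3.68 and not called (limma, adjusted p = 0.0808).

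DNA replication genes also had lower OHT effects in GCSF, from another start. Of 31 genes tested, 24 were called lower and 0 higher (median interaction -0.83), 25 fell in GCSF, and in IL3 2 rose and 1 fell. At 0h 28 of the 31 were called higher in GCSF than in undifferentiated cells, and at 8h 15 were higher and 1 lower. GCSF 0h replicate 1 was the lowest of its group in 30 of the 31, and without it 24 were again called lower for the interaction. The licensing factor *Cdc6* was at 861, 910 and 895 at GCSF 0h and at 412, 477 and 423 after 8 h, while in IL3 it was at 272, 285 and 262 and then at 369, 390 and 339 (interaction -1.44 ± 0.13, limma adjusted p = 3.28e-19). *Uhrf1*, which passes DNA methylation to new strands, was at 3852, 4070 and 4061 at GCSF 0h, at 1989, 2033 and 2009 at GCSF-OHT 8h, at 1191, 1144 and 1185 in undifferentiated cells and at 1526, 1465 and 1504 at IL3-OHT 8h. Both genes fell by about 1 log2 unit in GCSF (-1.02 and -0.99) and were still higher there at 8h than in any IL3 library. *Tyms*, thymidylate synthase, had an interaction of -1.39 ± 0.14.

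The mitosis list gave a different result. Of 26 genes, 1 was called higher and 1 lower, with a median of -0.01, although all 26 were called higher in GCSF than in IL3 both at 0h and at 8h. GCSF 0h replicate 1 was the lowest of its group in all 26. The exceptions were the separase gene *Espl1* (-0.74 ± 0.12) and the centromere gene *Cenpf* (0.65 ± 0.13). Of 20 G1 cyclins, CDK inhibitors and pocket proteins, 5 were higher and 7 lower. Cyclin E1, *Ccne1*, rose in IL3 from 194, 200 and 211.5 to 347, 393 and 355 and fell in GCSF from 553, 586 and 596 to 291, 310 and 347 (interaction -1.72 ± 0.11, limma adjusted p = 9.58e-28). The pocket protein gene *Rbl2* had 1.12 ± 0.06, *E2f1* -0.98 ± 0.12, and the CDK inhibitor *Cdkn2b* 1.80 ± 0.57.

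Immediate-early genes were among those with the largest positive interactions. Of those outside the EGR, AP-1 and ERK lists, 16 of 18 were already lower at GCSF 0h than in undifferentiated cells (3600 of 17414 genes tested were). *Fosb* (chromosome 7, 19302696-19310118), a subunit of the AP-1 transcription factor, was at 10493, 10285 and 10230 in undifferentiated cells and at 123.3, 110 and 137.1 at IL3-OHT 8h, an 83.7-fold fall of the mean. At GCSF 0h it was at 41.6, 33.6 and 39.1 and at GCSF-OHT 8h at 42.9, 71.7 and 53.3. The undifferentiated libraries were far above the other 9, and the interaction was 6.90 ± 0.26 (limma, adjusted p = 2.41e-47). *Atf3*, a stress-induced partner of AP-1, went from 2099, 2120 and 2132 to 176, 132 and 148 in IL3 and from 60.99, 46.04 and 56.9 to 103.1, 104 and 93.5 in GCSF (4.68 ± 0.22). It fell in IL3 and rose in GCSF. Of 14 AP-1 factors, 9 were called higher and 3 lower (median 0.95), with *Maff* at 3.02 ± 0.26 and *Jund* at 2.19 ± 0.23. Of 18 other immediate-early genes 12 were higher and 1 lower (median 1.21), 12 fell in IL3, and 3 rose and 2 fell in GCSF. Among them the nuclear receptor *Nr4a1* had 3.12 ± 0.49, the antiproliferative genes *Btg1* and *Btg2* 2.90 ± 0.12 and 2.93 ± 0.54, and *Ier5* 2.34 ± 0.14.

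**Figure D3:**
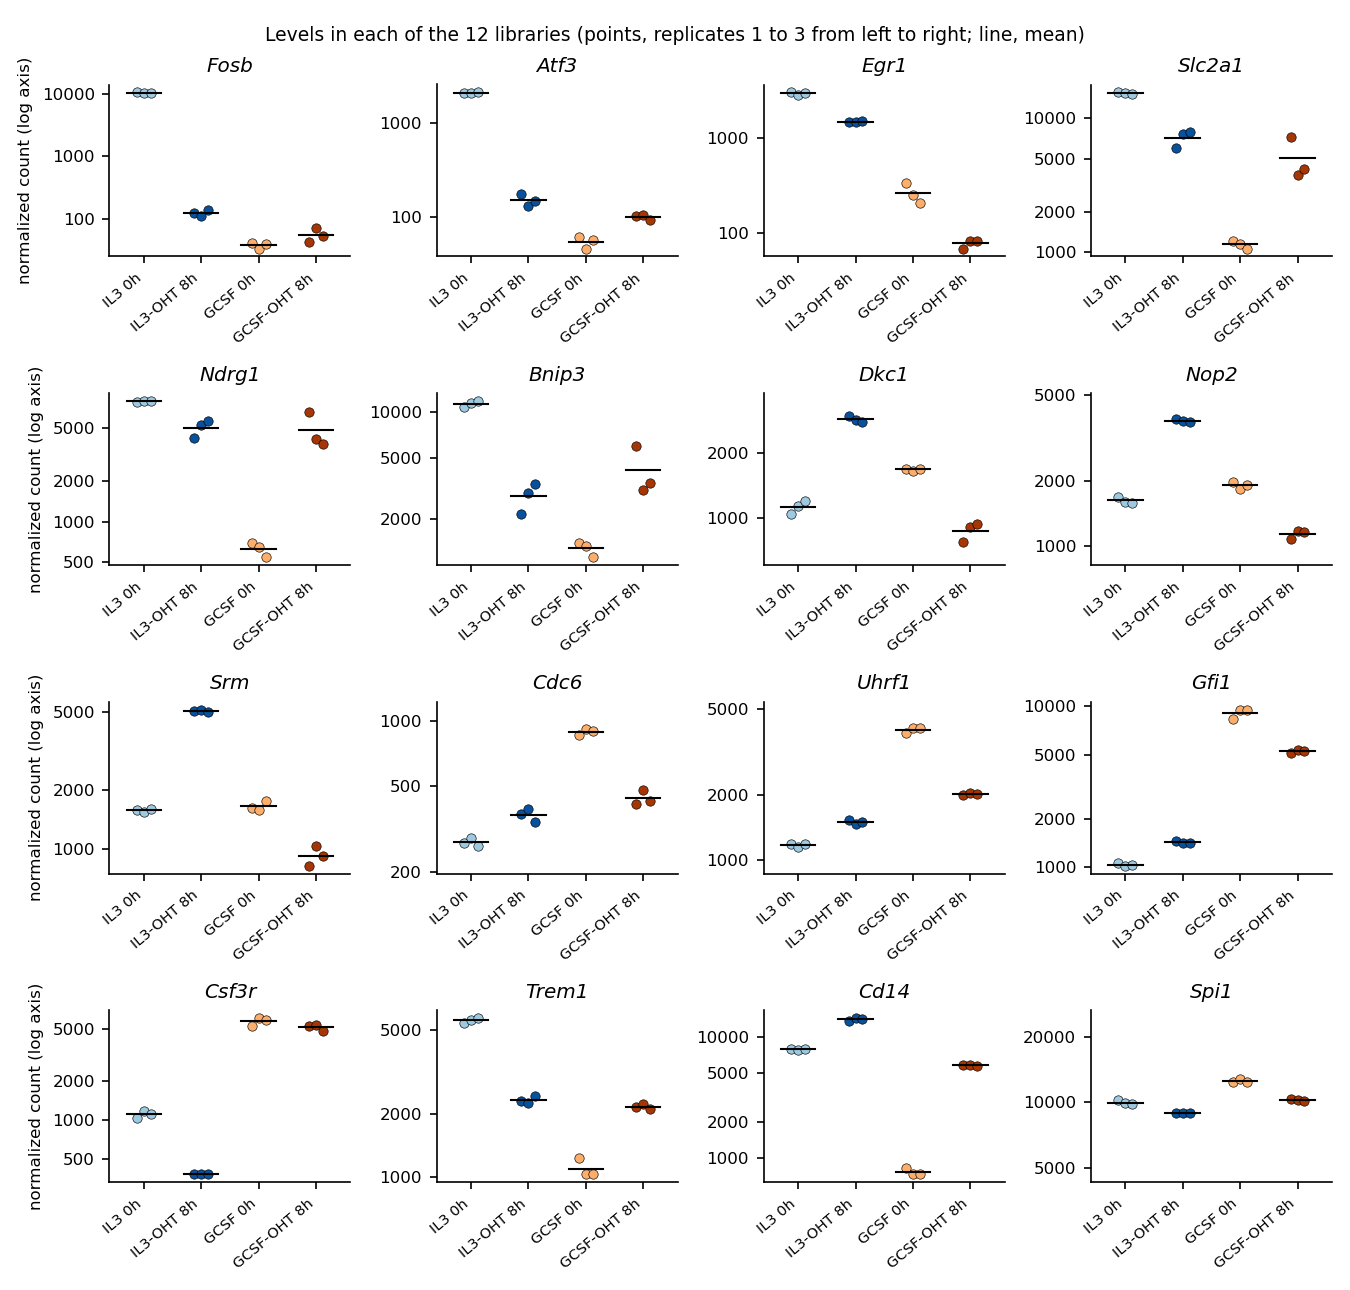
Normalized counts on log axes for 16 genes, with the 3 libraries of each group as points and the group mean as a line. Fosb and Atf3 are high in the undifferentiated libraries, Dkc1, Nop2 and Srm lie higher in IL3 than in GCSF at 8h and not at 0h, Cdc6, Uhrf1 and Gfi1 start high in GCSF, and replicate 1 of GCSF-OHT 8h lies above the others for Slc2a1, Ndrg1 and Bnip3.

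The EGR factors and their NAB corepressors, which take part in the choice between macrophage and neutrophil, did not move alike. All 6 fell in IL3, 4 were called higher and 1 lower for the interaction. *Egr1*, an immediate-early and macrophage factor, was at 3007, 2852 and 2972 in undifferentiated cells and at 1472, 1451 and 1491 at IL3-OHT 8h, and went from 335, 253 and 207 to 68.4, 82.7 and 81.3 in GCSF. It fell by 1.00 in IL3 and by 1.74 in GCSF, and the interaction of -0.74 ± 0.25 (limma, adjusted p = 0.0106) was -0.56 and not called without GCSF 0h replicate 1 (limma, adjusted p = 0.0777). *Egr2* was at 145.2, 170 and 146.5, then at 81.9, 77.1 and 73.3 in IL3, and between 8.96 and 13.3 in the 6 GCSF libraries. Its interaction of 0.79 ± 0.31 lost its call without any of 4 libraries, with values from 0.66 to 0.75. *Nab2* went from 6152, 6074 and 6034 to 1512, 1670 and 1636 in IL3 and from 912, 849 and 701 to 1394, 1033 and 1197 in GCSF (2.48 ± 0.17, limma adjusted p = 2.01e-26). *Nab1* and *Egr3* had 0.90 ± 0.09 and 4.43 ± 0.81. Of 14 phosphatases and Sprouty proteins that restrain ERK, 7 were higher and 4 lower (median 0.64), but with 1h after OHT as the start 5 were higher and 6 lower and the median was -0.26. *Dusp10*, *Dusp1* and *Dusp5* had 3.33 ± 0.33, 2.71 ± 0.19 and 2.58 ± 0.12, while *Dusp2* had -2.56 ± 0.59, falling in GCSF from 151, 128 and 144 to 31.6, 31.03 and 36.7.

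Glycolysis genes were higher in GCSF for the interaction in 15 of 22 and lower in 0 (median 0.94). In IL3 15 fell and 1 rose, and in GCSF 2 rose and 1 fell. *Slc2a1* (chromosome 4, 119108745-119137330), the glucose transporter GLUT1, was at 15582, 15493 and 15096 in undifferentiated cells and 5959, 7620 and 7910 at IL3-OHT 8h. In GCSF it went from 1219, 1147 and 1064 to 7290, 3772 and 4163, so that it fell in IL3 and rose in GCSF (interaction 3.20 ± 0.23, limma adjusted p = 9.95e-25). *Pgk1*, phosphoglycerate kinase, fell from 71445, 75808 and 78724 to 19542, 22529 and 23116 in IL3, whereas its 21392, 17367 and 16826 at GCSF 0h and 19280, 14535 and 14952 at GCSF-OHT 8h overlapped (1.60 ± 0.15). *Aldoc* and *Tpi1*, an aldolase and triosephosphate isomerase, had 2.61 ± 0.24 and 1.48 ± 0.17. Replicate 1 was the highest of the 3 GCSF-OHT 8h libraries in 18 of 20 glycolysis genes with a mean of at least 20, and replicate 1 of IL3-OHT 8h the lowest in 17 of 20. Without the former, 14 glycolysis genes were called higher and *Slc2a1* had 2.91, and without the latter 14 and 3.07.

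The letters ACGTG, the core of the hypoxia response element, stood in 14 of 33 upstream windows of 21 glycolysis genes (42.4%), beside 20.4% of the windows of tested genes. Each CACGTG also holds these letters on both strands. The windows of *Slc2a1* and *Pgk1* carry them in a form that lies outside an E-box and are printed with the letters, or their complement CACGT, in capitals. They are at chr4:119108495-119108744 and chrX:106186850-106187099, both on the plus strand of GRCm38.p6 as given by RefSeq.
Slc2a1: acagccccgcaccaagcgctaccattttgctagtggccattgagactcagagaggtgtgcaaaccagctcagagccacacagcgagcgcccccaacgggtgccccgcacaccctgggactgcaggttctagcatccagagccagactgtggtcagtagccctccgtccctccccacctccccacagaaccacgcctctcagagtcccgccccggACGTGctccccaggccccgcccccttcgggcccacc
Pgk1: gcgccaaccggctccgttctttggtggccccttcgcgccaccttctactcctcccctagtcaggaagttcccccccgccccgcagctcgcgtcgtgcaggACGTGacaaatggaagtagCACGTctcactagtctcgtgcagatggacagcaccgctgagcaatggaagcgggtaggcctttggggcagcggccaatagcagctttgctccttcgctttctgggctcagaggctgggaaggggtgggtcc
No factor was measured at these letters.

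Genes of cholesterol synthesis and uptake were higher in GCSF in 17 of 25 and lower in 1 (median 0.69). In IL3 13 fell and 2 rose, and in GCSF 2 rose and 0 fell. The sterol demethylation enzyme *Msmo1* went from 1136, 1110 and 1195 to 582, 541 and 582 in IL3 and from 402, 426 and 441 to 775, 783 and 855 in GCSF (1.94 ± 0.13, limma adjusted p = 5.63e-26). The libraries of each condition did not overlap between times. *Mvd*, *Insig1* and *Fdft1*, which encode a mevalonate enzyme, a sterol sensor and squalene synthase, had 1.67 ± 0.14, 1.62 ± 0.10 and 1.42 ± 0.16. In the amino acid stress response governed by ATF4, 5 of 23 genes were higher and 6 lower. The cystine transporter *Slc7a11* had 2.34 ± 0.30, while the leucine transporter *Slc7a5* had -1.51 ± 0.11 and the serine pathway genes *Shmt2* and *Phgdh* -1.36 ± 0.09 and -1.34 ± 0.15.

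Other genes had effects of opposite sign and were taken by the smaller of both absolute effects. Those given here rose in GCSF and fell in IL3. *Nos2*, inducible nitric oxide synthase, went from 945, 896 and 850 to 149.1, 284 and 325 in IL3 and from 60.99, 48.7 and 43.8 to 442, 168 and 136 in GCSF (3.97 ± 0.34, and 3.46 without the high GCSF-OHT 8h replicate 1). *Hcar2*, the niacin receptor, went from 1868, 1911 and 1757 to 504, 510 and 606 and from 98.9, 82.3 and 76.4 to 450, 322 and 371 (3.91 ± 0.16, limma adjusted p = 2.63e-44). Interferon-inducible *Ifi203* and cyclooxygenase 2, *Ptgs2*, had 3.62 ± 0.23 and 3.54 ± 0.27. The predicted gene *Gm28035*, at 119, 77.7 and 94.5 in undifferentiated cells, varied from 0 to 26.8 at GCSF 0h and had 5.41 ± 1.31. Of the other genes with the largest positive values, *Ndrg1*, a stress-responsive gene, rose in GCSF from 693, 650 and 546 to 6553, 4169 and 3800 and fell in IL3 from 7823, 7880 and 7954 to 4192, 5311 and 5629 (3.56 ± 0.18). *Bnip3*, a mitophagy receptor, had 3.66 ± 0.25, *Smtnl2* 4.61 ± 0.36, *Dusp18* 4.10 ± 0.18, *Azin2*, an antizyme inhibitor, 3.76 ± 0.29, and the pseudogene *Gm18852* 4.02 ± 0.99.

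Of 35 textbook targets of PU.1, 13 were called higher in GCSF and 3 lower (median 0.48). In GCSF 13 rose and 0 fell, and in IL3 10 rose and 7 fell. *Cd14*, the lipopolysaccharide co-receptor, rose in both conditions, from 7859, 7810 and 7915 to 13505, 14211 and 13906 in IL3 and from 836, 740 and 733 to 5878, 5894 and 5754 in GCSF (2.11 ± 0.08, limma adjusted p = 1.14e-46). *Trem1*, an activating receptor of myeloid cells, fell in IL3 from 5420, 5593 and 5691 to 2297, 2236 and 2413 and rose in GCSF from 1224, 1026 and 1029 to 2142, 2210 and 2111 (2.25 ± 0.07). At 8h the *Trem1* libraries of both conditions lay within 2111 to 2413, from starts 5.09-fold apart. *Tyrobp*, an adaptor of such receptors, was at most at 2.05 before OHT and at 7.496 to 10.5 in IL3 and 24.5 to 32.4 in GCSF after it, and its call (1.94) was lost in edgeR and DESeq2. *Msr1*, a scavenger receptor, was at 172.1, 172.4 and 172.3 at IL3-OHT 8h and at 0, 3.45 and 5.24 at GCSF-OHT 8h. It had no read at GCSF 0h, so its fitted interaction depends on the pseudocount and is not given as a result.

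Lineage transcription factors split evenly, with 8 of 28 higher and 8 lower. *Gfi1* (chromosome 5, 107716655-107725805), the repressor that opposes EGR factors in neutrophil development, was at 8342, 9562 and 9445 at GCSF 0h and 5147, 5336 and 5310 at GCSF-OHT 8h, and at 1057, 1019 and 1027 in undifferentiated cells and 1451, 1412 and 1410 at IL3-OHT 8h. It fell by 0.79 in GCSF, had 0.46 in IL3, and its interaction was -1.25 ± 0.08 (limma, adjusted p = 2.22e-26). *Cebpd* rose in both conditions, more in IL3 (2.22) than in GCSF (1.01), with -1.21 ± 0.14. *Zeb2* had 1.17 ± 0.10 and the granulocytic *Cebpe* -0.63 ± 0.14, which was -0.56 and under the size for a call without IL3-OHT 8h replicate 3. *Cebpa*, the master factor of granulocytes, had 0.13 ± 0.18 and was not called (limma, adjusted p = 0.612). *Irf8* and *Csf1r* lay near the floor of 3 reads, at means of 2.74 to 6.49 and 1.84 to 8.63, and neither interaction was called. *Irf4*, at 18.3, 21.5 and 24.8 in undifferentiated cells and at or under 1.86 in the other 9 libraries, was called with 3.62 by limma but not by edgeR or DESeq2.

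Cytokine receptors were higher in 6 of 26 and lower in 2, beside 16% and 11.4% of all genes tested. The GCSF receptor *Csf3r* fell in IL3 from 1022, 1173 and 1102 to 379, 383 and 381 and stood at 5266, 6040 and 5847 before and 5253, 5344 and 4787 after OHT in GCSF (1.37 ± 0.09, limma adjusted p = 2.80e-27). *Csf2rb2*, the IL3-specific beta chain, rose in both, from 2648, 2617 and 2549 to 36379, 36213 and 37712 in IL3 and from 2760, 2924 and 2799 to 21719, 21688 and 21055 in GCSF. The starts lay close together, and the rise was 14.1-fold in IL3 and 7.60-fold in GCSF (-0.89 ± 0.07, limma adjusted p = 4.32e-21). Reads of *Csf2rb2* and its near copy *Csf2rb* may be shared. *Il3ra* was not called (0.28 ± 0.18, limma adjusted p = 0.201), and *Il6ra* and *Flt3* had 1.00 ± 0.10 and 2.36 ± 0.85. *Flt3* was not called without GCSF 0h replicate 3 (1.61) or IL3-OHT 8h replicate 2 (1.97).

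Secondary and tertiary granule proteins of neutrophils were higher in 12 of 25 and lower in 0 (median 0.54), with 11 falling in IL3 and 6 rising in GCSF. *Chil3*, a chitinase-like protein, rose in GCSF from 1390, 1328 and 1423 to 5580, 5823 and 5328, and in IL3 was at 1626, 1776 and 1711 and then at 2135, 2023 and 2276 (1.68 ± 0.11, limma adjusted p = 4.50e-26). *Anxa1*, *Retnlg* and *Lyz1* had 1.23 ± 0.11, 1.07 ± 0.14 and 2.42 ± 0.38. *Lyz1* was at or under 3 reads in every GCSF 0h library, so the size of its value depends on the pseudocount. Of 15 primary granule proteins 7 were higher and 2 lower. Myeloperoxidase, *Mpo*, fell in IL3 from 3891, 3858 and 3575 to 1892, 1985 and 2134 and was at 7632, 9516 and 9507 and then at 11835, 11239 and 10943 in GCSF (1.27 ± 0.15). Cathepsin C, *Ctsc*, rose steeply in both, from 7.85, 9.21 and 10.6 to 286, 274 and 281 in IL3 and from 10.2, 14.2 and 13.0 to 130, 152 and 160 in GCSF (-1.32 ± 0.23). *Clec12a*, an inhibitory lectin, and *Prss57*, a serine protease, had 1.23 ± 0.39 and 1.84 ± 0.63. *Clec12a* had no call in edgeR and DESeq2, or without undifferentiated replicate 3 (0.85) or IL3-OHT 8h replicate 1 (0.76). *Clec12a* was at or under 3 reads in every undifferentiated library and *Prss57* in every IL3-OHT 8h library. The size of both values thus depends on the pseudocount. The sum of neutrophil markers was lower after OHT than before it in IL3 and overlapped between times in GCSF, and its part in this result was not tested.

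Myeloid paired receptors were higher in 15 of 33 and lower in 4 (median 0.64). In GCSF 19 rose and 0 fell, and in IL3 17 rose and 5 fell. *Cd33*, an inhibitory siglec, fell in IL3 from 3022, 3175 and 3382 to 587, 605 and 625 and was between 470 and 751 in the 6 GCSF libraries (2.12 ± 0.18). *Cd300lb*, an activating receptor, rose from 730, 719 and 726 to 1702, 1467 and 1610 in IL3 and from 116.4, 128 and 112 to 980, 1136 and 1125 in GCSF (2.04 ± 0.11, limma adjusted p = 1.45e-33). Of 26 monocyte and macrophage markers 7 were higher and 1 lower, beside 16% and 11.4% of all genes tested. By condition, 12 of them rose and 1 fell in GCSF (5.39% and 4.01% of all genes tested). In IL3 11 rose and 5 fell (11.8% and 17.9% of all genes tested). The median effect was 0.30 in GCSF and 0.59 in IL3. The sialoadhesin *Siglec1* rose in GCSF from 11.1, 12.4 and 7.46 to 99.03, 108.2 and 87.4 and was at 47.1, 42.96 and 35.5 and then at 34.05, 23.6 and 17.1 in IL3 (3.92 ± 0.43). *Mpeg1*, perforin 2, had 2.58 ± 0.16. The NADPH oxidase subunits had 1 of 7 higher, beside 16% of all genes tested. This was *Ncf1* with 0.62 ± 0.07, which was 0.56 and under the size for a call without IL3-OHT 8h replicate 1.

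**Figure D4:**
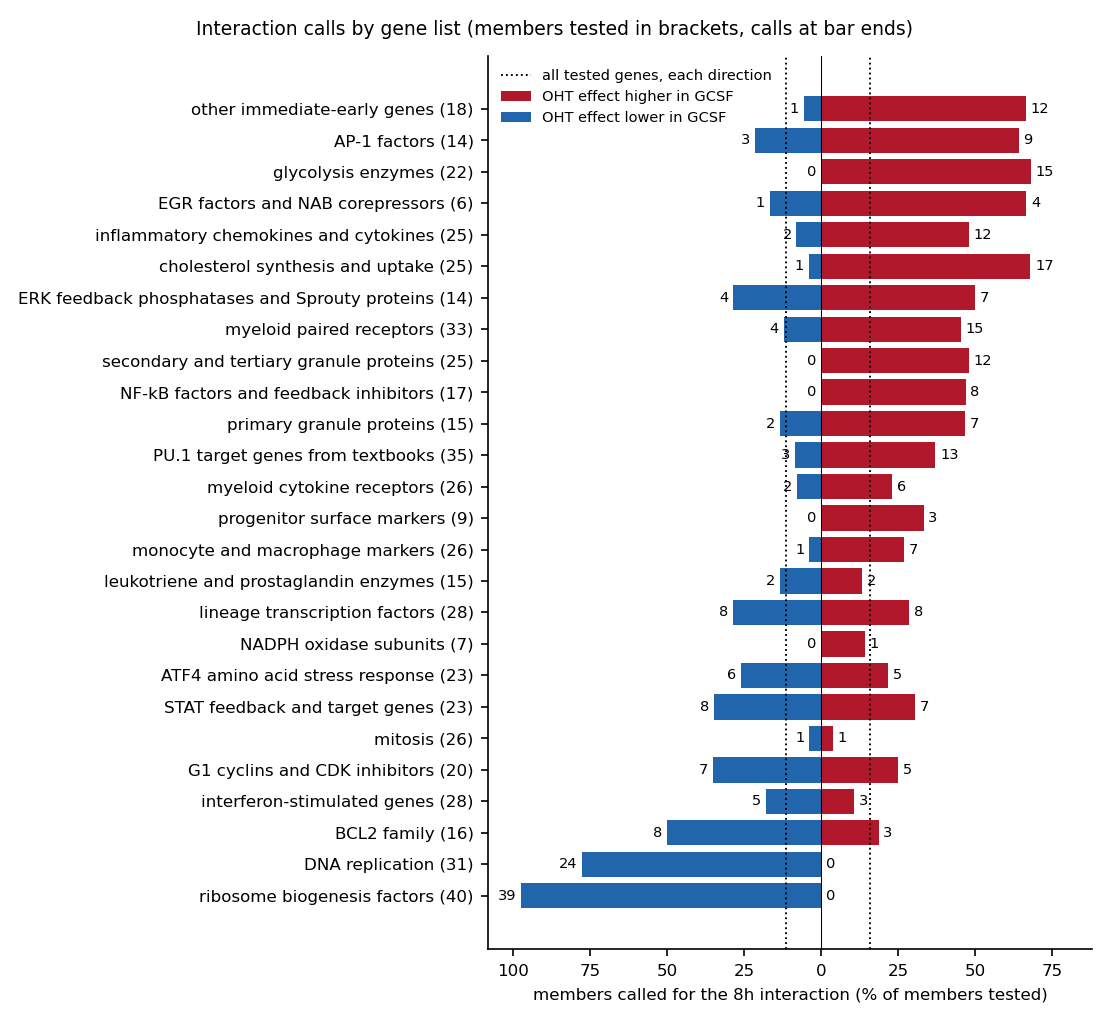
Bars give the percentage of each list's tested members called for the interaction, higher in GCSF to the right and lower to the left, with the number called at the bar end. Dotted lines mark 16% and 11.4%, the shares over all tested genes, and ribosome biogenesis (39 of 40) and DNA replication (24 of 31) extend furthest to the left.

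Inflammatory chemokines and cytokines were higher in 12 of 25 and lower in 2 (median 0.75), and 17 of the 25 were already lower at GCSF 0h than in undifferentiated cells. The chemokine *Ccl4* fell in IL3 from 588, 617 and 599 to 243, 232 and 248 and rose in GCSF from 115.5, 99.2 and 108.1 to 296, 288 and 277 (2.73 ± 0.19, limma adjusted p = 9.62e-25). *Ccl3*, *Lif* and oncostatin M, *Osm*, had 2.19 ± 0.13, 2.72 ± 0.53 and 3.12 ± 0.19. Of 17 NF-kB factors and their inhibitors 8 were higher and 0 lower (3 and 1 with 1h after OHT as the start), among them *Traf1* (3.78 ± 0.73), *Nfkbiz* (1.87 ± 0.14) and *Nfkbia* (1.22 ± 0.09). *Nfkbie* rose in both, with 1.11 ± 0.24. Of 23 STAT feedback and target genes 7 were higher and 8 lower, with *Mcl1* at 1.75 ± 0.12, *Pim2* at 1.54 ± 0.19 and *Bcl2l1* at -1.26 ± 0.09. Interferon-stimulated genes had 3 of 28 higher and 5 lower, beside 16% and 11.4% of all genes tested. *Irf7* and *Gbp2* had 1.10 ± 0.35 and 1.00 ± 0.28, *Ifit3* -2.70 ± 0.70 and *Usp18* -1.28 ± 0.53. *Usp18* was not called in edgeR or DESeq2, nor without any of 8 libraries, when it lay between -1.24 and -1.15.

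The BCL2 family had 8 of 16 lower and 3 higher (median -0.58). *Bcl2l11*, the proapoptotic BIM, fell in IL3 from 4633, 4435 and 4773 to 1024, 984 and 1062 and was between 1198 and 1360 in the 6 GCSF libraries (2.10 ± 0.07, limma adjusted p = 3.52e-51). *Bid*, another proapoptotic member, rose in IL3 from 260, 245 and 252 to 1155, 1043 and 1163 and was between 588 and 720 in GCSF (-1.96 ± 0.09). *Bcl2a1d* was at 40.5, 37.5 and 24.8 at IL3-OHT 8h and at most at 3.06 in the other 9 libraries. It belongs to a family of near-identical copies whose reads can be split, and its value is uncertain. The antiapoptotic *Bcl2l1* rose in IL3 from 1895, 1777 and 1769 to 3216, 3191 and 3268 and had -0.43 in GCSF. The eicosanoid genes had 2 of 15 higher and 2 lower, beside 16% and 11.4% of all genes tested (*Ptges* 1.05 ± 0.20, *Ptges3* -0.76 ± 0.09, *Alox5* -0.66 ± 0.05). Of 9 progenitor surface markers and factors 3 were higher and 0 lower, beside 16% and 11.4% of all genes tested. *Sox4* had 0.88 ± 0.15, from a smaller fall in GCSF. Its mean at 8h was 0.252 of that at 0h in IL3 and 0.461 in GCSF.

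The same comparison was made at 4h and 12h. It subtracts the same 0h libraries at each time, so these calls are not independent of those at 8h. At 4h 2630 genes were called (15.1%), 1648 higher and 982 lower in GCSF, and at 12h 4298 (24.7%), 2673 higher and 1625 lower. Ribosome biogenesis factors had 28 of 40 lower at 4h and 20 at 12h, glycolysis genes 14 of 22 higher at 4h and 15 at 12h, and DNA replication genes 5 of 31 lower at 4h and 15 at 12h. *Dkc1* rose in IL3 from a mean of 1127 at 0h to 2180 at 4h and 2875 at 8h and was at 1565 at 12h, while in GCSF it was at 1682, 1571, 875 and 1007 at the same times. *Slc2a1* in IL3 was at 15391 at 0h, 19538 at 1h, 2221 at 4h, 7163 at 8h and 21976 at 12h. In GCSF it was at 1144, 4615, 1165, 5075 and 12406. Of the times from 1h to 12h, *Slc2a1* was lowest at 4h and highest at 12h in both conditions.

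**Figure D5:**
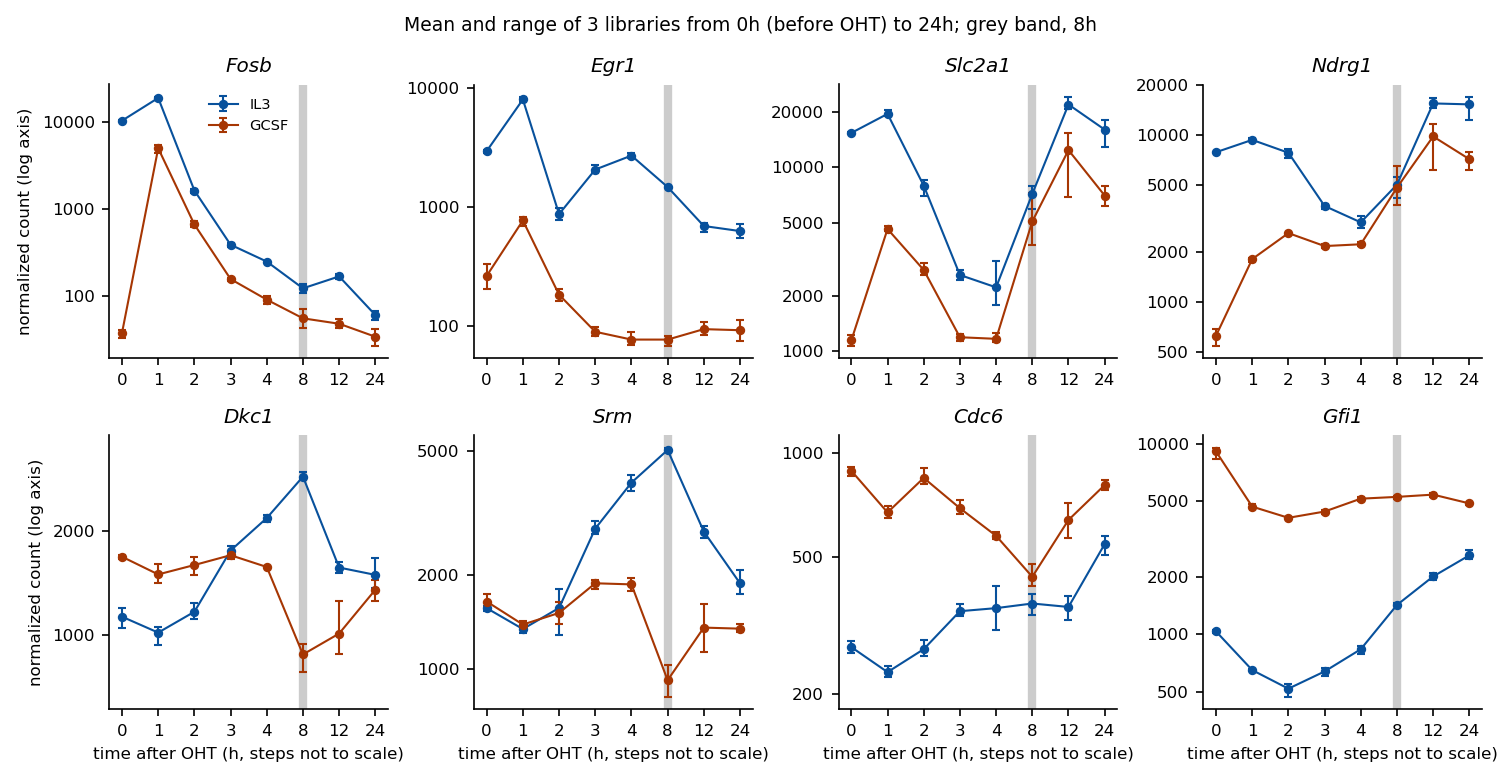
Mean normalized count of 8 genes from 0h to 24h after OHT on log axes, with bars from the lowest to the highest of 3 libraries, in IL3 (blue) and GCSF (brown). Fosb, Slc2a1 and Ndrg1 start high in IL3 and low in GCSF and run closer together by 8h, whereas Srm starts close together, Dkc1 starts higher in GCSF, and both lie lower in GCSF at 8h.

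Since the starts differed so much, the interaction was also taken from 1h after OHT in each condition, an alternative chosen after the values had been seen. It then gave 4596 genes (26.4%), 2757 higher and 1839 lower. Of the 2783 genes called higher from 0h, 2043 were called higher from 1h, and of the 1993 called lower, 1491. Ribosome biogenesis factors again had 39 of 40 lower and 0 higher, glycolysis 12 of 22 higher and cholesterol genes 15 of 25 higher. Other lists changed. DNA replication genes had 16 of 31 lower in place of 24, and 0 higher (median -0.59 in place of -0.83). EGR factors and NAB corepressors had 2 higher and 1 lower. Inflammatory chemokines and cytokines had 8 and 1, and secondary and tertiary granule proteins 8 and 0. PU.1 targets had 7 higher and 3 lower, paired receptors 9 and 3, and monocyte and macrophage markers 6 and 4 (median -0.20 in place of 0.28). Interferon-stimulated genes had 1 higher and 0 lower, lineage transcription factors 8 and 5, and STAT genes 6 and 4. The value of *Fosb* was 0.77 in place of 6.90 and that of *Atf3* 1.41 in place of 4.68, *Fosb* having risen in GCSF from 38.1 at 0h to 4987 at 1h. *Dkc1* had -2.28, *Srm* -2.50 and *Dctd* -3.32. *Cd14* and *Anxa1* were no longer called, with 0.40 and 0.08. Between the conditions, 60.1% of the genes called for the interaction were closer together at 8h than at 0h, beside 57.2% of all genes tested, and 213 were called at both times with opposite signs.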

How the data were processed

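Total RNA of PUER cells was sequenced by the study over a time course of 165 libraries. Per the study's methods and processing notes, the authors quantified reads with Salmon against GRCm38/mm10 and normalized gene counts with DESeq2. How transcripts were summed to genes is not given in the sources used here. The deposited signal is gene counts divided by a size factor per library, and whole reads were recovered for 100% of nonzero values (tolerance 1e-06 reads). The count tests used these reads.

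The 17414 of 36255 genes that reached a normalized count of 5 in any library were tested on log2(value + 1) with limma 3.58.1 in R 4.3.3, with a trend of variance on level and 1 mean for each of 54 groups. The fit held 159 libraries, leaving out IL3-OHT at 96 and 144 h as the authors did. Fold changes on this scale understate changes of low genes. Alternatives used edgeR 4.0.16 (quasi-likelihood) and DESeq2 1.42.0. Promoter windows came from RefSeq.

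Genes were named by rule. These were the 12 largest interactions in each direction among called genes (mean of at least 100 in 1 group and at least 10 in all 4), up to 4 called genes of each list by size, the 6 largest effects of opposite sign by the smaller of both, and the OHT check, EGR, lineage and receptor genes whatever their result. *Nop14*, *Noc3l* and *Pgk1* were shown for their windows. Some genes that the rule names are not reported here. The members and lists were chosen with earlier results of these data known.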

Additional observations from a re-analysis of the deposited data

Results flagged for a closer look

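Each of these results was listed because the OHT effect differed between GCSF and IL3 by the test of that difference (limma). The OHT effect was higher in GCSF in 2783 genes and lower in 1993, and in 261 genes it was called with opposite signs in both conditions. Among those, the predicted gene *Gm28035* had an interaction of 5.41, *Nos2* 3.97, *Hcar2* 3.91, *Ifi203* 3.62 and *Ptgs2* 3.54. For *Nos2*, GCSF-OHT 8h replicate 1 was the highest of its group, and without this library the value was 3.46.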

How the results depend on the processing

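The counts of genes called over all genes stayed within 1.5 times their value under each other pseudocount, filter, scaling and tool (edgeR, DESeq2), with the replicate block, with fewer groups in the fit, and with any 1 library left out. With each library left out in turn, the interaction at 8h gave 2600 to 2744 genes higher and 1922 to 1996 lower. With the replicate number as a block it gave 2782 and 1988, and no call over all genes moved by over 1.5 times. The numbers gave no sign of pairing the samples. Deviations of same-numbered libraries correlated between -0.335 and 0.345 over 18 pairs (median -0.009). Those of different-numbered libraries correlated between -0.365 and 0.321 over 36 pairs (median 0.017). With 3 libraries per group, such values cannot exclude pairing. Upper-quartile scaling shifted the median interaction by 0.0346. The BCL2 family had 5 genes lower in edgeR in place of 8. Cytosolic ribosomal proteins had 4 higher in edgeR and 11 with upper-quartile scaling in place of 7, and 4 to 13 with a library left out. Calls of single genes were lost 19 times under these settings, another 20 times with a library left out and 16 times from 1h, where 7 list counts also moved by over 1.5 times. Taking 1h as the start, chosen after seeing the data, gave 1307 genes that fell in GCSF in place of 699. From 1h the sign changed for *Nfkbie* (-0.087), *Cd300lb* (-0.45), *Esr1* (-0.10), *Cebpe* (0.11) and *Csf1r* (-0.57), and the cause was not tested. These values were all under the size needed for a call, and *Esr1* and *Csf1r* were not called from 0h either. Over all genes, 1 of the 2783 called higher from 0h was called lower from 1h, and 0 of the 1993 called lower were called higher. Genes near the floor of 3 reads had no stable value across tools.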

Other observations

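Further gene groups were gathered after values had been seen, so their counts are descriptions. Genes of the hypoxia response outside glycolysis had 21 of 23 called higher in GCSF and 0 lower (median interaction 2.01), with 17 falling in IL3 and 14 rising in GCSF. GCSF-OHT 8h replicate 1 was the highest of its group in 23 of 23 of them and IL3-OHT 8h replicate 1 the lowest in 20 of 23. Nucleotide, folate and polyamine synthesis had 23 of 31 lower and 0 higher (median -1.36), with 17 rising in IL3 and 13 falling in GCSF. At GCSF 0h 12 of these 31 were higher than in undifferentiated cells and 4 lower, and at 8h 0 were higher and 20 lower.

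Mitochondrial ribosomal proteins had 40 of 78 lower and 0 higher (median -0.58), and 15 rose in IL3 while 1 fell in GCSF. Cytosolic ribosomal proteins had 7 of 83 higher and 1 lower (median 0.40), smaller shares than the 16% and 11.4% of all genes tested. Of the 83, 65 were lower at GCSF 0h than in undifferentiated cells, against 4 lower in GCSF than in IL3 at 8h. Cytosolic aminoacyl-tRNA synthetases, which load tRNAs with amino acids, had 9 of 19 lower and 1 higher (median -0.58).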
